A study of Rattus norvegicus with 12 samples.

Results

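Rab GTPases are small GTP-binding proteins that give each membrane compartment of a cell its identity and direct the vesicles that move between compartments. A Rab is switched on by an exchange factor (GEF), recruits effector proteins that tether or transport membrane, and is switched off by a GTPase-activating protein (GAP). A lipid tail added by prenylation holds it on the membrane. In the hepatocyte this traffic carries albumin and lipoproteins out of the cell, recycles receptors to the sinusoidal surface and delivers material to bile canaliculi and lysosomes.

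The members described here are the Rab genes in the hepatic transcriptomes of 6 EtOH and 6 control rats. All 12 animals were females of the inbred alcohol-preferring strain iP10a with free access to food and tap water for 23 weeks. The 6 EtOH animals also had ad libitum bottles of 10, 20 and 30% ethanol, whereas the 6 controls had water only. Livers were taken at 38 weeks of age, or 39 weeks for EtOH animal 6. A single inbred strain and 1 sex were used, and each animal gave 1 library. The measured value is the RPKM of the deposited table, which scales reads to transcript length and library size, so levels can be compared between genes. A gene was a member when its name was Rab followed by a number and at most a letter and a digit, and when its RPKM was above 0 in at least 1 liver. Of 71 rows and 52 names of this form, 3 names (Rab26, Rab44 and Rab9b) were listed at 0 in every liver, which left 49 genes among the 21718 transcripts above 0. Each is represented by its row with the highest mean RPKM. Some well-known relatives, including Rab10, Rab12 and Rab37, do not appear under these names and were not analysed here.

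Whole reads could be recovered from the RPKM steps and came to between 2610238 and 4318141 per control liver and between 3945593 and 6030028 per EtOH liver, so the EtOH libraries were deeper (two-sided exact permutation test, p = 0.011, n = 6 each). The livers expressed hepatocyte markers strongly, with albumin at 70352 RPKM ± 9238 in controls and 79085 ± 8514 in EtOH animals (SD, n = 6 each). Fold changes below are log2 values, EtOH minus control, from limma on quantile-normalized log2(RPKM + 0.5), which understates changes of low genes. A transcript was called when its Benjamini-Hochberg adjusted p over all 21718 transcripts was below 0.05.

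Among the 49 Rab genes, Rab30 alone was called, and it rose. Rab30 encodes a Rab of the Golgi apparatus. Its level was 7.88 RPKM ± 4.42 in controls and 23.1 ± 7.29 in EtOH animals (SD, n = 6 per group), and the means stood in a ratio of 2.93. The other 48 genes did not pass the test. Over all transcripts 526 of 21718 (2.42%) were called, so 1 call among 49 genes (2.04%) is close to the background. In bulk liver, fewer cells of a type and less RNA per cell cannot be told apart.

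The position of Rab30 is given as listed by the authors, whose genome build the sources used here do not give. Its row spans positions 149656373 to 149670208 of chromosome 1. RefSeq places 2 start sites of Rab30 on the plus strand of the same chromosome in the build GRCr8, 72.8 kb apart, and the RPKM values do not tell which one the transcripts used. The 250 bases before each start site are shown because Rab30 is the member that was called. Capitals mark the matches to 5 motifs searched on both strands, which do not contain one another: the GC box GGGCGG, the CCAAT box CCAAT, the TATA box TATAAA, the half-site of the cAMP response element TGACG and the E box CACGTG.
Rab30 start site 1, chr1:156215887-156216136: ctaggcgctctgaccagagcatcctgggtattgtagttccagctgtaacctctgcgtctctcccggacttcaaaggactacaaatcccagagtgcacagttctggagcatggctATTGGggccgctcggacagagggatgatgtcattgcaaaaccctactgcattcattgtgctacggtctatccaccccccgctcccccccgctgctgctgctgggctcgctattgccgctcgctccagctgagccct
Rab30 start site 2, chr1:156288711-156288960: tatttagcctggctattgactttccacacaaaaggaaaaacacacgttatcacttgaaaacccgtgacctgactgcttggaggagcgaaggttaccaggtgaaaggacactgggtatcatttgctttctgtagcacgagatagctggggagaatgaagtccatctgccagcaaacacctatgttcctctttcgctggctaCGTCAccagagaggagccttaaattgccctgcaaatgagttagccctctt
The first window holds an inverted CCAAT box that begins 136 bases before the start site, and the second holds an inverted cAMP response element half-site that begins 50 bases before it. A CCAAT box is found in 35.2% of the 8946 windows of this length whose gene has a tested transcript, and the half-site in 25.6%. Neither window of Rab30 holds a GC box.

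RefSeq held a window for 40 of the 49 members, 41 windows in all. Among the 39 windows of members other than Rab30, 32 (82.1%) hold a GC box, against 55.1% of the windows of genes with a tested transcript. A TATA box is in 0 of the members' 41 windows and in 7.25% of those of tested genes. The GC content of the Rab30 windows is 58.0% and 47.2%. The median is 62.4% over the members' windows and 59.4% over those of tested genes. These matches describe the letters in the windows and do not show that a factor binds there.

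Rab30 lay at 3.24, 6.14, 10.9, 5.47, 6.18 and 15.3 RPKM in control animals 1 to 6. In EtOH animals 1 to 6 it lay at 17.7, 17.7, 33.1, 30.7, 16.1 and 23.4 RPKM. The groups did not overlap, but the lowest EtOH liver (animal 5) lay only 0.816 RPKM above the highest control (animal 6). The spread was wide in the controls, where the highest liver had 4.73 times the level of the lowest, against 2.05 times in the EtOH animals. The values rest on 13 to 100 reads per control liver and 107 to 306 per EtOH liver. A deeper library gives fewer RPKM per read. The highest liver of each group was also its deepest library, at 0.153 RPKM per read in control 6 and 0.108 in EtOH animal 3. The lowest control, animal 1, was the shallowest control (0.249). Other livers departed from this order, such as control 3 (0.214 per read) and EtOH animal 5 (0.147 per read). A relation of Rab30 to depth was not tested. The log2 fold change was 1.74 (SE 0.32, 95% interval 1.04 to 2.44, adjusted p = 0.0186 from limma). Regrouping the 12 livers gave an exact permutation p of 0.0022, two-sided, which is the smallest that 6 against 6 allows. Rab30 was set beside the family with its rise already known from these data, so this p restates the separation and adds no support. Rab1b and Rab8a, which were not called, reach the same p, since their groups also do not overlap as deposited.

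**Figure D1:**
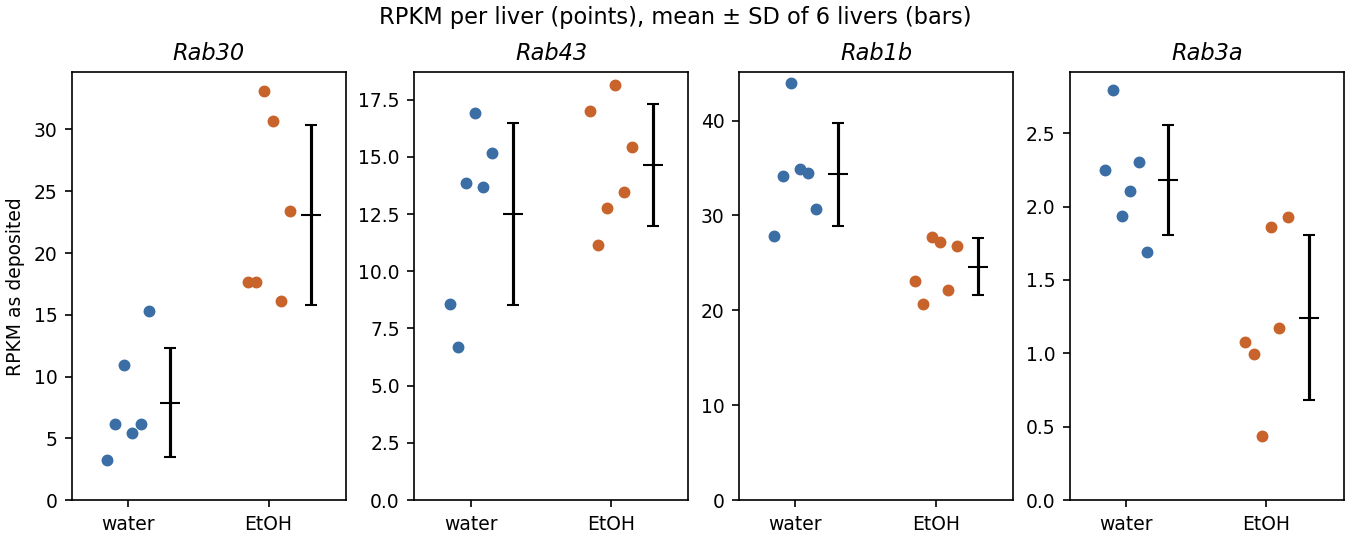
RPKM of Rab30, Rab43, Rab1b and Rab3a in each control (water, blue) and EtOH (orange) liver, with the mean and SD of 6 livers as black bars; each panel has its own axis from 0. Every EtOH liver lies above every control for Rab30, by at least 0.816 RPKM, whereas the Rab43 and Rab3a groups overlap and Rab1b is lower in EtOH livers without overlap.

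A second row of Rab30 has the same start and end and took few reads. The 6 controls had 0 reads there, while 4 of 6 EtOH animals together had 24. With reads pooled within each group and set against depth, the ratio is 5.83, taking 3 control reads as the limit that a count of 0 allows. This ratio covers neither the counting error of the 24 reads nor the spread between animals, and EtOH animals 2 and 3 also had 0 reads. The row was above 0 in EtOH livers only, so the ratio is a description. The log2 fold change of this second row, 0.93, was not called (adjusted p = 0.133 from limma). With both rows summed, Rab30 had a log2 fold change of 1.77 (adjusted p = 0.00806 from limma). That fit summed the rows of every gene name and called 977 of 15270. Its adjusted p is therefore not comparable with that of the main fit, and the lower value does not measure what the second row adds.

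Set beside the rest of the family, Rab30 stood apart in size of change. Its 95% interval, from 1.043, lay above that of each of the 48 other members, but by a narrow margin over Rab7b, whose interval reached 1.039 on 26 reads. Of these 48, 11 had a mean RPKM below 1, where the log2(RPKM + 0.5) scale understates changes, so they say little here. Among the 38 members with a mean RPKM of at least 1, the next highest log2 fold change was 0.40 for Rab43, and the highest upper bound after Rab30 was 1.00 for Rab2b. Of these 38 genes, 36 (94.7%) lay within 0.5 of 0 on the log2 scale, against 86.1% of all 11086 transcripts at this level. The exceptions were Rab30 and Rab3a. Over all 49 members the median log2 fold change was 0.01, and over all tested transcripts it was 0.00019. By log2 fold change Rab30 ranked 18 among the 21718 transcripts.

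The rise moved Rab30 within the family. It was the 24th most abundant Rab in control livers and the 10th in EtOH livers. The summed RPKM of the 49 genes as deposited was 774 ± 28.4 in controls and 724 ± 33.1 in EtOH livers (SD, n = 6 each). Rab30 made up 1.02% ± 0.589 of this sum in controls and 3.18% ± 0.929 in EtOH livers. The share was below 2.06% in all controls and above 2.22% in all EtOH livers. Without Rab30 the sum was 766 in controls and 701 in EtOH livers. A sum over all transcripts was not compared with it. The medians of single genes were alike for Rab genes and for all transcripts. Without normalization the median log2 fold change was -0.085 over the 38 members with a mean RPKM of at least 1. Over all transcripts at that level it was -0.082.

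**Figure D2:**
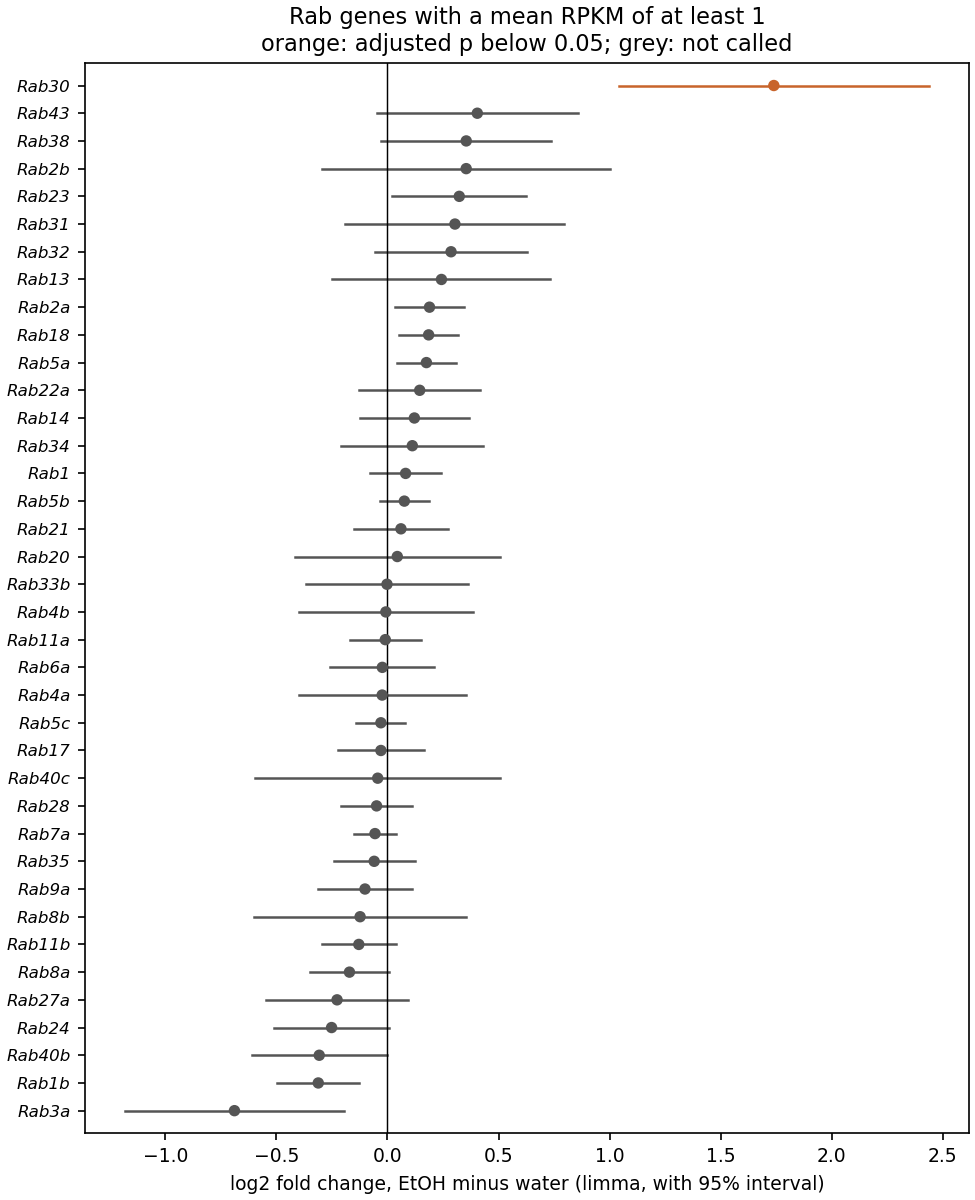
Log2 fold change (EtOH minus control) of the 38 Rab genes with a mean RPKM of at least 1, as points with 95% intervals from limma, ordered by size. Rab30, in orange, is the only one called, at 1.74, while the others lie between -0.69 and 0.40.

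At an unadjusted p below 0.05, 8 of 49 members (16.3%) passed, beside 15.5% of all transcripts. The 5 that were higher were Rab30, Rab18, Rab2a, Rab5a and Rab23, and the 3 that were lower were Rab1b, Rab3a and Rab40b. Before normalization the EtOH mean was only 1.01, 1.02 and 1.02 times the control mean for Rab18, Rab2a and Rab5a. Without normalization the log2 fold changes of Rab18 and Rab2a were 0.02 and 0.03 (adjusted p = 0.864 and 0.867 from limma). As deposited, 3 members (6.12%) had no overlap between the groups, against 3.10% of all transcripts. These were Rab30, higher in EtOH livers, and Rab1b and Rab8a, lower. After quantile normalization Rab30 was the one left without overlap.

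The Rabs of the early secretory pathway, between endoplasmic reticulum and Golgi, were the most abundant group. Rab1, which directs transport from the endoplasmic reticulum to the Golgi, led the family with 109.6 RPKM ± 7.78 in controls and 104 ± 12.5 in EtOH livers (SD, n = 6 each). For Rab1 the log2 fold change was 0.08 (SE 0.07, adjusted p = 0.649 from limma) and turned to -0.0767 without normalization between livers. Rab18, found on lipid droplets and the endoplasmic reticulum, had 49.2 ± 3.24 and 49.9 ± 1.76. Rab2a, of the intermediate compartment between both organelles, had 47.7 ± 4.59 and 48.6 ± 3.79. Both genes overlapped between groups as deposited, with log2 fold changes after normalization of 0.19 each (SE 0.06 and 0.07) and adjusted p of 0.141 and 0.214. Of the 13 genes in this group Rab30 was called, and the median log2 fold change of the other 12 was 0.06, or -0.03 without normalization. Rab6a, a Rab of retrograde traffic at the Golgi, and Rab33b, a Golgi Rab that binds an autophagy factor, had log2 fold changes of -0.02 and -0.0022.

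Rab43, another Golgi Rab, had the largest positive fold change after Rab30. It ranged from 6.68 to 16.9 RPKM in controls (median 13.8) and from 11.2 to 18.1 in EtOH livers (median 14.4). Controls 1 and 2 were low and the other 4 controls lay inside the EtOH range. The log2 fold change was 0.40 (SE 0.21, adjusted p = 0.392 from limma). Rab2b, a close relative of Rab2a, was at 1.83 RPKM ± 0.599 in controls and 2.57 ± 1.21 in EtOH livers (log2 fold change 0.35, SE 0.30, adjusted p = 0.649), on 141 reads in all.

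The row named Rab1b carries an uncertainty of identity. It ranged from 27.8 to 43.9 RPKM in controls (median 34.3) and from 20.7 to 27.7 in EtOH livers (median 24.9). The groups were separate, and the log2 fold change was -0.31 (SE 0.08, adjusted p = 0.0788 from limma). The row lies on the X chromosome, positions 73108021 to 73109838 as listed by the authors, where RefSeq has a pseudogene whose older symbol is Rab1b, while the coding Rab1b gene is on chromosome 1. A row on chromosome 1 named RAB1B_RAT, which the naming rule does not take, had 10.2 RPKM ± 2.76 in controls and 10.2 ± 1.11 in EtOH livers. Reads of near-identical copies could have been divided between these rows. For the 48 other members RefSeq lists a protein-coding gene on the chromosome given in the table.

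**Figure D3:**
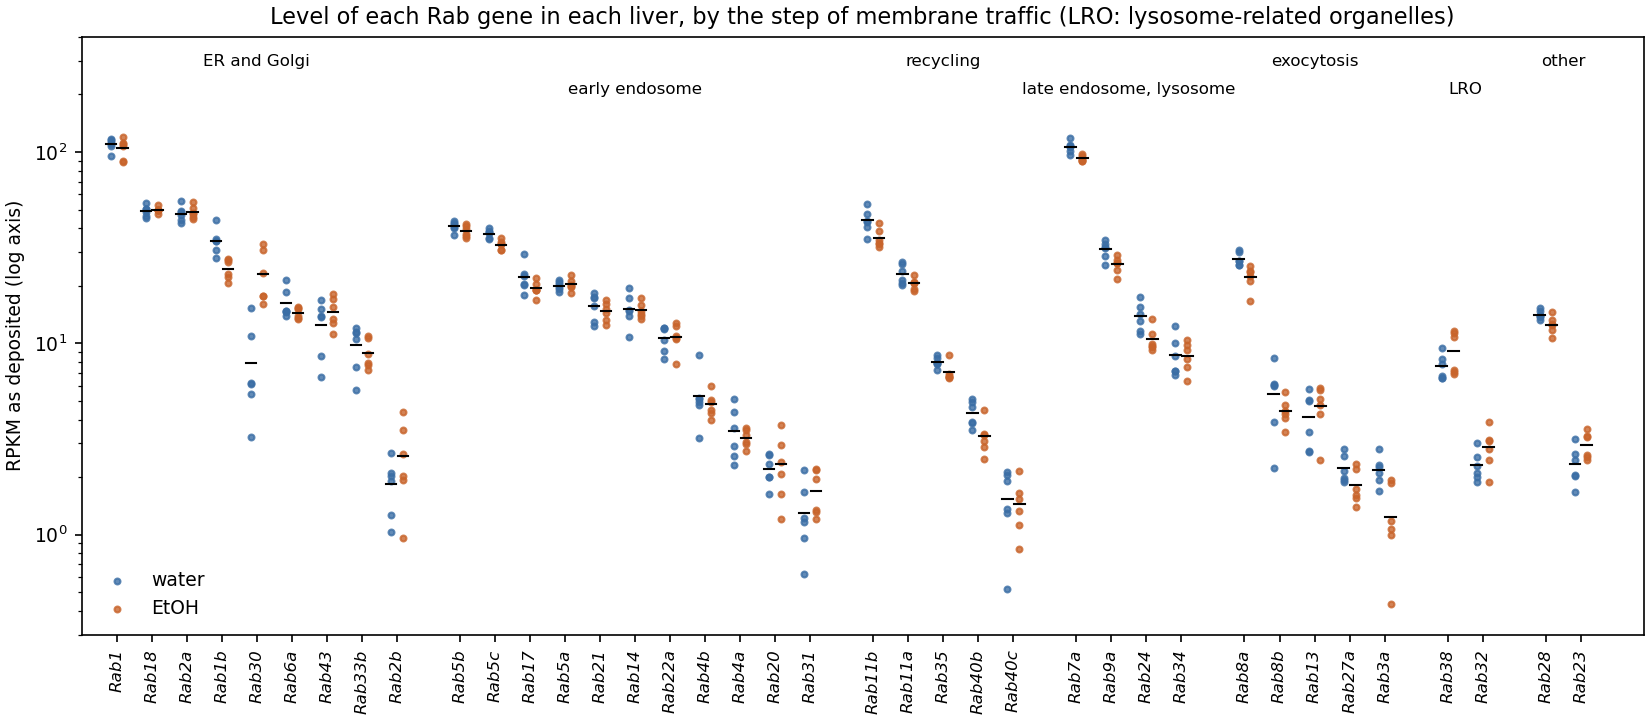
RPKM on a log axis of each Rab gene with a mean of at least 1, in each control (water, blue) and EtOH (orange) liver, with group means as black bars, grouped by the step of membrane traffic. The genes span from 1.49 RPKM (Rab40c) to 107 RPKM (Rab1) on average over the 12 livers, and Rab30 is the one that was called.

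Early and sorting endosome Rabs numbered 11, and none was called. Their log2 fold changes ran from -0.03 to 0.30 with a median of 0.06, which became -0.07 without normalization and -0.0047 with limma voom on recovered reads. The Rab5 isoforms, which govern fusion of early endosomes, were led by Rab5b at 40.9 RPKM ± 2.27 in controls and 38.6 ± 2.62 in EtOH livers (log2 fold change 0.08, SE 0.05, adjusted p = 0.531 from limma). The mean RPKM of Rab5b was thus lower in EtOH livers while its normalized value was higher, and without normalization its log2 fold change was -0.0854. Rab5c lay at 37.5 ± 1.87 and 32.8 ± 1.83, and Rab5a at 20.0 ± 1.07 and 20.4 ± 1.53. Rab17, an epithelial Rab of transcytosis that is prominent in liver, had 22.3 RPKM ± 3.95 in controls and 19.3 ± 1.72 in EtOH livers, with a log2 fold change of -0.03. Rab31, which acts between the trans-Golgi network and endosomes, had a log2 fold change of 0.30 (adjusted p = 0.594) at 1.30 and 1.70 RPKM.

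Of the 7 recycling endosome Rabs none was called, and 6 of the 7 log2 fold changes were below 0, or 5 of 7 with median scaling. Those of Rab11a, Rab35, Rab40c and Rab15 lay within 1 SE of 0, and Rab15 rested on 2 recovered reads. The count of signs thus does not show a fall of the group. Rab11b, which returns membrane to the cell surface, was at 43.9 RPKM ± 6.28 in controls and 35.7 ± 4.00 in EtOH livers (log2 fold change -0.13, SE 0.08, adjusted p = 0.470 from limma). Its relative Rab11a had 23.1 ± 2.78 and 20.6 ± 1.40 (log2 fold change -0.01). Rab40b, which carries a domain that joins ubiquitin ligases, ranged from 3.53 to 5.10 RPKM in controls (median 4.28) and from 2.47 to 4.51 in EtOH livers (median 3.19). Of the EtOH livers, animal 6 was the one inside the control range. The log2 fold change of Rab40b was -0.31 (SE 0.14, adjusted p = 0.316 from limma).

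The late endosome, lysosome and autophagy group held 6 Rabs, with none called. Rab7a, which brings late endosomes to lysosomes, was the second most abundant Rab, at 106 RPKM ± 7.63 in controls and 92.5 ± 3.48 in EtOH livers (log2 fold change -0.06, SE 0.04, adjusted p = 0.608 from limma). Together Rab1 and Rab7a made up 27.9% ± 1.02 of the family's RPKM in controls and 27.2% ± 1.32 in EtOH livers (SD, n = 6 each). Rab24, linked to autophagy, ranged from 11.2 to 17.5 RPKM in controls (median 13.7) and from 9.28 to 13.3 in EtOH livers (median 9.80). The ranges overlapped through EtOH animal 5, and the log2 fold change of -0.25 was not called (SE 0.12, adjusted p = 0.341 from limma). Rab9a, which returns receptors from late endosomes to the Golgi, had 31.0 ± 3.29 and 25.8 ± 2.55 RPKM (log2 fold change -0.10).

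Rabs of exocytosis and polarised secretion numbered 8, and none was called. Rab3a, best known from regulated exocytosis in neurons and endocrine cells, had the largest negative log2 fold change of the 38 more abundant members, -0.69 (SE 0.23, adjusted p = 0.143 from limma). It ranged from 1.69 to 2.80 RPKM in controls (median 2.18) and from 0.434 to 1.93 in EtOH livers (median 1.13). EtOH animals 4 and 6 lay inside the control range and the other 4 lay below it. These values rest on 67 reads in the controls and 52 in the EtOH livers. Rab8a, which carries vesicles from the Golgi to the cell surface, was at 27.7 RPKM ± 2.18 in controls and 22.2 ± 3.00 in EtOH livers (log2 fold change -0.17, SE 0.08, adjusted p = 0.339). Its lowest control had 25.6 RPKM and its highest EtOH liver 25.3. Rab27a, a Rab of secretory lysosomes, had 2.22 ± 0.390 and 1.81 ± 0.378 RPKM.

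Rab32 and Rab38, which build lysosome-related organelles such as melanosomes, both had positive fold changes that were not called. Rab38 ranged from 6.57 to 9.46 RPKM in controls (median 7.27) and from 6.91 to 11.6 in EtOH livers (median 9.01). EtOH animals 2, 3 and 5 lay above all controls, at 11.3, 11.6 and 10.8 RPKM, while animals 1, 4 and 6 lay inside the control range. The log2 fold change of Rab38 was 0.35 (SE 0.18, adjusted p = 0.370 from limma), and that of Rab32 was 0.29. Rab23, a negative regulator of hedgehog signalling, was at 2.33 RPKM ± 0.526 in controls and 2.95 ± 0.467 in EtOH livers, with a log2 fold change of 0.32 (adjusted p = 0.283).

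Of the 49 members 11 had a mean RPKM below 1, and 7 of these had fewer than 10 recovered reads in all 12 livers. Recovered reads are the smallest whole numbers that fit the values, so for such genes they are lower limits. In 4 genes a single group was above 0. Rab27b, Rab33a and Rab3c had at least 1, 2 and 1 reads, in EtOH livers, and Rab36 had at least 1 read, in a control. A gene above 0 in 1 liver is always given 1 read by this recovery. No fold is given for these genes, since 1 group is at 0. Several of these are known mainly from neurons or other epithelia, such as Rab3c, Rab6b and Rab25. Rab19 had the lowest log2 fold change of the 11, -0.40 (adjusted p = 0.470 from limma), on 23 reads.

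More than 1 row above 0 was present for 11 members. In 10 of them the row used held at least 92.7% of the gene's reads. The exception was Rab6a, where it held 65.3%, and there the other row had 7.96 RPKM ± 2.02 in controls and 8.18 ± 1.99 in EtOH livers. For Rab1 a minor row was at 0 in 3 controls and 2 EtOH livers and reached 16.3 RPKM in another EtOH liver, so the division of reads between Rab1 rows differed between livers of the same group. The row used for Rab1 held 92.7% of its reads.

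The genes that act on or with Rabs were taken from 4 lists, chosen like the members with earlier results of these data known. Not found under the listed names or older symbols were 12 GEFs, 12 GAPs, 1 prenylation gene and 13 effectors, among them Rab3gap1, Tbc1d4, Mon1a and Rab11fip5. The lists thus cover the machinery in part. Of 121 listed genes above 0, 2 were called (1.65%, background 2.42%), and 19 passed an unadjusted p below 0.05 (15.7%, background 15.5%). Among 40 GEFs 1 was called, which rose. Dennd6a, a GEF of Rab14 that the table lists as Fam116a, had 6.64 RPKM ± 0.499 in controls and 7.78 ± 0.374 in EtOH livers, with ranges of 6.06 to 7.50 and 7.37 to 8.43. The log2 fold change of Dennd6a was 0.32 (SE 0.07, adjusted p = 0.0318 from limma). Among 26 GAPs 1 was called, which fell. Tbc1d2, a GAP of Rab7, ranged from 5.02 to 6.44 RPKM in controls (median 5.59) and from 3.44 to 4.21 in EtOH livers (median 3.62), without overlap. The log2 fold change of Tbc1d2 was -0.45 (SE 0.09, adjusted p = 0.0309 from limma). Neither call held throughout: of 12 fits that each left out 1 liver, Dennd6a was called in 4 and Tbc1d2 in 4. The genes these proteins act on, Rab14 and Rab7a, were not called.

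None of the 14 prenylation or extraction genes was called, although Rabac1 and Rabggta, a subunit of the enzyme that attaches the lipid, each passed under 3 of the 24 alternatives. Rabac1, a membrane protein that binds prenylated Rabs, had 51.6 RPKM ± 5.84 in controls and 39.1 ± 3.88 in EtOH livers, without overlap (log2 fold change -0.24, SE 0.06, adjusted p = 0.0781 from limma). Ggps1, which makes the lipid used for prenylation, had 2.68 ± 0.538 and 3.49 ± 0.308 RPKM (log2 fold change 0.38, adjusted p = 0.169). None of 41 effectors was called, and their median log2 fold change was 0.15. Ocrl, an inositol phosphatase recruited by several Rabs, had the smallest p among effectors with a positive change, at 1.09 RPKM ± 0.637 in controls and 2.09 ± 0.289 in EtOH livers (log2 fold change 0.80, SE 0.25, adjusted p = 0.121). Unc13d, an effector of Rab27a, had the smallest p among those with a negative change (log2 fold change -0.29, adjusted p = 0.371). Of the GEFs, Rin3, which activates Rab5 proteins, had a log2 fold change of -0.32 (adjusted p = 0.126), and of the GAPs, Rabgap1l had one of 0.53 (adjusted p = 0.124).

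**Figure D4:**
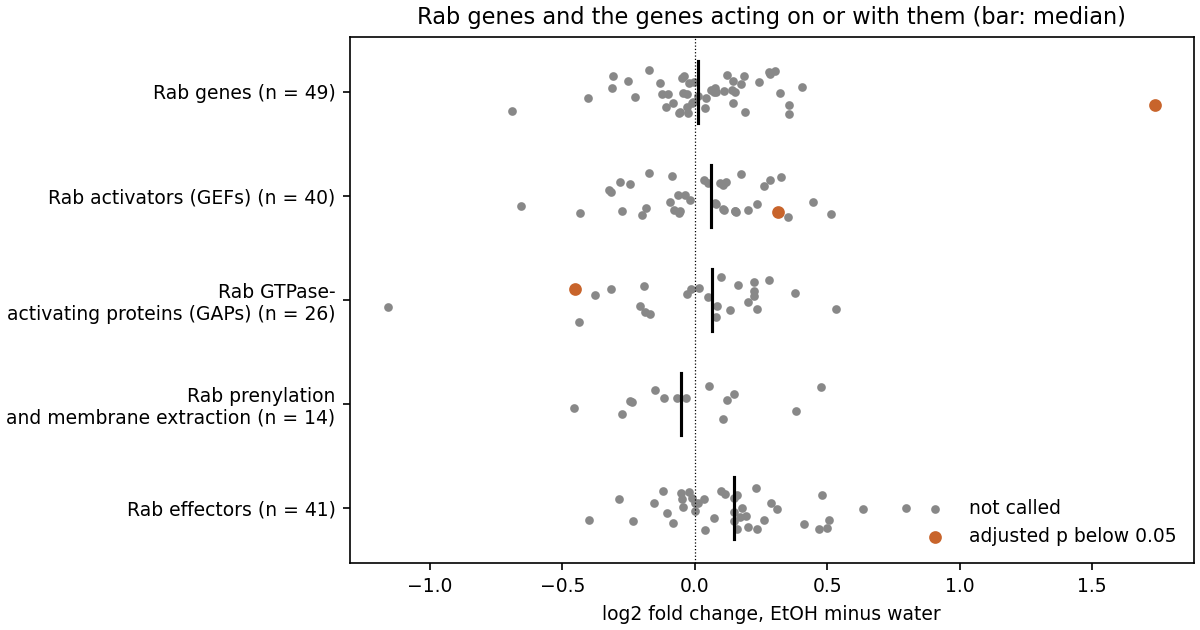
Log2 fold changes (EtOH minus control) of the 49 Rab genes and of the 40 GEFs, 26 GAPs, 14 prenylation and extraction genes and 41 effectors above 0, 1 point per gene, with a black bar at each median. The orange points are the called genes Rab30 (1.74), Dennd6a (0.32) and Tbc1d2 (-0.45), and the list medians lie between -0.05 and 0.15.

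Some markers of other liver cell types were called higher in the EtOH livers, and the summed levels of every list overlapped between the groups. The calls in each list stand beside 2.42% of all transcripts. Log2 fold changes were above 0 for 8 of 8 Kupffer cell and macrophage markers (median 0.44) and 5 of 5 endothelial markers (median 0.37). They were above 0 for 8 of 9 stellate cell and fibroblast markers (median 0.34) and 4 of 6 hepatocyte markers (median 0.0025). For cholangiocytes this held for 4 of 6 (median 0.11), and for lymphocytes and neutrophils for 6 of 9 (median 0.10). Of 8 Kupffer cell and macrophage markers 3 were called higher (Vsig4, Clec4f and Cd163), and their summed RPKM ranged from 168 to 258 in controls and from 223 to 276 in EtOH livers. Of 9 stellate cell and fibroblast markers 2 were called higher (Col1a2 and Col3a1), with sums of 27.4 to 38.3 and 34.5 to 55.5 RPKM, while Ngfr of the same list had a log2 fold change of -0.26 (adjusted p = 0.308). Of 5 endothelial markers 1 was called higher (Cdh5), with sums of 28.0 to 36.2 and 33.5 to 46.5 RPKM. Of 6 hepatocyte markers 1 was called higher (Cps1), with sums of 68143 to 96383 and 76922 to 103450 RPKM. None of 6 cholangiocyte or of 9 lymphocyte and neutrophil markers was called. No marker found in the table was at 0 in all livers. Several listed markers were not found by name, among them Adgre1 and Marco of macrophages and 5 of 10 endothelial markers. The part of these cells, and of the greater depth of the EtOH libraries, in the rise of Rab30 was not tested.

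**Figure D5:**
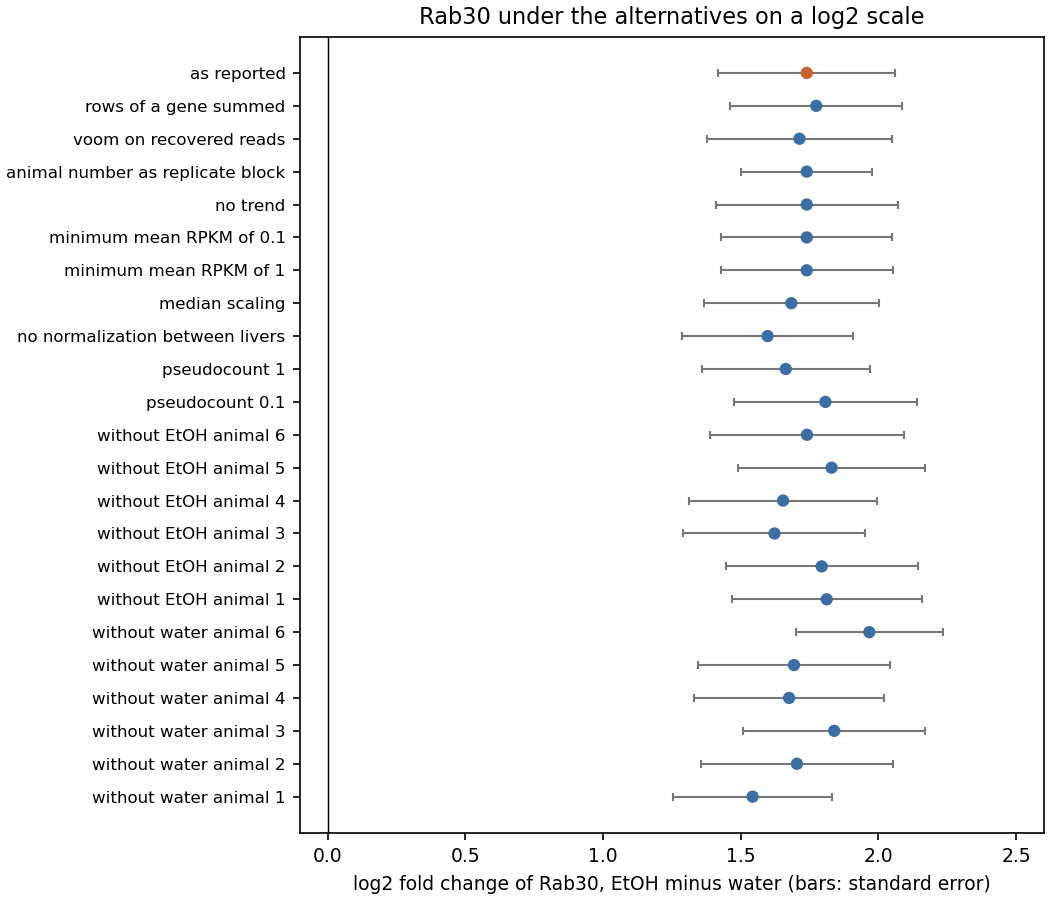
Log2 fold change of Rab30 (EtOH minus control, bars give the standard error) as reported, in orange, and under the 22 alternatives computed on a log2 scale, in blue. All lie between 1.54 and 1.97, the lowest without control animal 1 and the highest without control animal 6.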

How the data were processed

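Poly(A) RNA was sequenced in 101-nucleotide paired-end reads. Mapping was done by the authors in CLCbio Genomics Workbench, and they deposited RPKM values per liver for 34391 transcripts. The sources used here do not name the genome build. The columns of the authors' own comparison (a fold change with its statistic, p value and FDR) were not used. RPKM values were compared with limma 3.58.1 in R 4.3.3, with a mean-variance trend and the animals as replicates. No filter was applied beyond an RPKM above 0 in at least 1 liver. For all 21718 transcripts the values stood in ratios of whole reads, within 0.001 of a read, and reads were taken as the smallest such numbers. Floors and read numbers cover counting error only. The procedure was run on simulated data with the same spread set for all genes and changes placed only in transcripts with more reads. That run therefore does not cover genes with few reads or a spread as wide as that of Rab30 in controls. Members and lists were chosen with earlier results of these data known.

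All Rab genes may be named. Full statistics were given for Rab30, for the 4 largest fold changes in each direction, for genes without overlap and for the 6 highest levels, and in each list for the called gene or the smallest p in each direction. Symbols were matched by name or by an older RefSeq symbol on the same chromosome (GRCr8, used for names and for windows before start sites). The comparison of Rab30 with its nearest relative by protein sequence was not run. The alternatives were pseudocounts of 0.1 and 1, no normalization, median scaling, limma or a pooled test on square-root values, no trend, mean RPKM limits of 0.1 and 1, a replicate block, each liver left out, rows summed, and voom on recovered reads. Python 3.11.15, numpy 2.4.6, pandas 2.3.3, scipy 1.17.1 and matplotlib 3.10.9 were used.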

Additional observations from a re-analysis of the deposited data

Results flagged for a closer look

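Among the 39 members above 0 in all livers, 78 groups of 6 were screened for a single distant liver, of which chance alone would mark about 1 in 20, and 2 were marked. Rab35 in EtOH animal 5 was at 8.72 RPKM, with the next EtOH liver at 6.94, a gap of 0.83 of the group's range. Without that liver the log2 fold change of Rab35 was -0.12 (adjusted p = 0.475 from limma). Rab4b in control animal 3 was at 8.72 RPKM, with the next control at 5.18, a gap of 0.642 of the range, on 33 reads. Without that liver its log2 fold change was 0.13 (adjusted p = 0.709). The second Rab30 row, outside the comparison of 1 row per gene, had 24 reads in EtOH livers and 0 in controls.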

How the results depend on the processing

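Rab30 was called under all 24 alternatives, with adjusted p from 0.00407 to 0.0447. On square-root values, 1 member was called. Rab1b joined Rab30, giving 2 called members, without normalization, with a minimum mean RPKM of 1, with rows summed and without control animal 1; when each liver was left out the number was 1 to 2. The number of called machinery genes, 2 as reported, was 1 with limma on square-root values (Tbc1d2) and 0 with the replicate block. It was 3 without normalization (Tbc1d2, Rabac1 and Rabggta, without Dennd6a), and 3 also with a minimum mean RPKM of 1 and with rows summed, where Rabggta and Rabac1 respectively joined Dennd6a and Tbc1d2. With a liver left out it was 0 to 3: 0 without control animal 2, 3 or 4 or EtOH animal 2, 3 or 4, 1 without EtOH animal 1 (Rabac1), 5 (Tbc1d2) or 6 (Dennd6a), and 3 without control animal 1, Rabggta being added. Without normalization Rab1 and Rab5b turned to log2 fold changes of -0.0767 and -0.0854, and 13 rather than 18 of the 38 more abundant members were above 0, as the median of all such transcripts shifted to -0.08. Over all transcripts the 526 calls became 113 with the replicate block, 322 with the pooled square-root test, 857 with a minimum mean RPKM of 1, 977 with rows summed, and 212 to 656 with a liver left out. The cause of these changes was not tested. Same-numbered animals did not deviate together (correlations from -0.067 to 0.032, 1 of 6 best matched to its own number), so no pairing by number was detected. Such correlations cannot exclude a pairing, and the sample labels do not state one. With the replicate block Rab30 remained called (adjusted p = 0.0421 from limma), as the single member. Genes with few reads limit the family: 11 of 49 members had a mean RPKM below 1.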
